A study of Mus musculus with 36 samples.

Results

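The Hippo pathway genes of lineage choice comprised 10 genes: the transcription factors Tead4 and Tead1, the coactivators Yap1 and Wwtr1, the TEAD cofactor Vgll4, the kinases Lats1 and Lats2, and the upstream proteins Nf2, Amot and Amotl2. They were taken by gene symbol from the 40160 transcript clusters (the array's unit for a gene or transcript) that carry a symbol, and where a gene had several, the transcript cluster with the highest mean over 36 arrays stood for it. Only Amot had another, made of 30 probes without a genome position. The study asked how far sister blastomeres of the 2-cell mouse embryo differ and how culture changes this. B6C3F1 × CD1 embryos were bisected, and each zona-free blastomere was grown alone for 72 h to a blastocyst of about 40 to 50 cells, hybridized to 1 Mouse Transcriptome Array. Both sisters of embryos 1 to 8 grew in KSOM(aa) (n = 16 half-embryos), and for embryos 9 to 18 one sister grew in GM501 (n = 10) and the other in SAGE 1-step (n = 10), which are commercial single-step media for human embryos. The cell range is that of the labels, alike for all media. In its own counts the paper found more cells per twin blastocyst in commercial media than in KSOM(aa), so cell number may differ with the medium. All embryos had spent the time before bisection in KSOM(aa), and each array holds a whole half-embryo, so that fewer trophectoderm cells and less RNA per cell cannot be told apart.

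The Hippo pathway reads cell contact and polarity. When it is active, NF2 and the angiomotins (AMOT and its relative AMOTL2) help the kinases LATS1 and LATS2 to phosphorylate YAP1 and its relative WWTR1 (also called TAZ), which then stay in the cytoplasm. In the outer cells of the mouse embryo the apical domain keeps the pathway inactive, nuclear YAP1 and WWTR1 bind TEAD4, and trophectoderm genes such as Cdx2 and Gata3 are switched on, whereas the inner cells, which form the inner cell mass, keep the pathway active. Much of this control acts on the proteins (phosphorylation and location), which RNA signals do not measure.

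Amotl2 and Lats2 are themselves known in cultured cells as genes that respond to YAP and TEAD, so the promoters that hold the TEAD letters are shown. The RefSeq table for GRCm38.p6 held promoters (250 bases before to 50 after a start) of 8 of the 10 genes, 11 in all, and did not list Tead4 and Tead1. The core letters bound by TEAD proteins, GGAATG, were searched on both strands (CATTCC on the other). They occurred in a promoter of 5 of the 8 genes, beside 16.6% of the 27025 genes and 14.7% of the 32851 promoters in the table. Such a match is a description of the letters and no measured site. The capitals below mark the 6 letters, and each sequence is written 5′ to 3′ along the gene's strand.
Amotl2, chr9:102717692-102717791, plus strand: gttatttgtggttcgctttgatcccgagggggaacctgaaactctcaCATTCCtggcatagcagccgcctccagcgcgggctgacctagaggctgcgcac
Yap1, chr9:8004685-8004784, minus strand: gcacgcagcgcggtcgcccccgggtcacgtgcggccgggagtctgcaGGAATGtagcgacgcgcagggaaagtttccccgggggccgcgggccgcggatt
Wwtr1, chr3:57575994-57576093, minus strand: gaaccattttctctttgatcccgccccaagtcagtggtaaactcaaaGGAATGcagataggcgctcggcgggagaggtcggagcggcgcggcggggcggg
Vgll4, chr6:114969233-114969332, minus strand: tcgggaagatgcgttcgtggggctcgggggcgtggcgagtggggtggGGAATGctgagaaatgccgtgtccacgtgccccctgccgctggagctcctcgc
Lats2, chr14:57746102-57746131, minus strand: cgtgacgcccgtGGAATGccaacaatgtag
The letters began 65 bases before the start in Amotl2, 82 in Vgll4, 141 in Yap1, and 136 or 170 in Wwtr1, whose 2 listed starts share this stretch. In Lats2 they lay just after 1 of its 2 listed starts. The promoters of Lats1, Nf2 and Amot did not hold these letters.

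The arrays fell into sets. All KSOM(aa) arrays carry one scan name prefix and all arrays of the other media another, so that for KSOM(aa) the medium cannot be told apart from the set of arrays. Among the arrays of GM501 and SAGE 1-step, the half-embryos of embryos 9 to 14 stood apart from those of embryos 15 to 18, a split that no label or scan prefix gives. Gapdh was 14.85 ± 0.36 (SD, n = 12) in embryos 9 to 14, 15.74 ± 0.12 (n = 8) in embryos 15 to 18 and 15.74 ± 0.13 (n = 16) in KSOM(aa), in log2 signal, and the median of all transcript clusters was 5.33, 5.00 and 5.06. SAGE 1-step half-embryo 16b also stood apart, with a median of 5.36. All 10 members exceeded the background, set per array by olfactory and vomeronasal receptor genes (medians 4.72 to 5.24 in the 3 embryo sets), on 36 of 36 arrays. Trophectoderm markers were present (14 of 15 above background, all but Hand1), as were 10 of 10 epiblast and 9 of 10 primitive endoderm markers (all but Sox17), whereas 8 of 10 cumulus and granulosa cell markers were not above background.

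Tead4 (transcript cluster at chr6:128224288-128300823 of mm10, minus strand), the TEAD family member that the mouse trophectoderm requires, fell in both commercial media. In KSOM(aa) its log2 signal ranged from 8.71 to 9.67 (median 9.29), in GM501 from 8.08 to 9.56 (median 8.53) and in SAGE 1-step from 7.90 to 9.07 (median 8.64). In each of these media 6 of 10 half-embryos lay below the lowest of KSOM(aa), and all 12 of those belonged to embryos 9 to 14 or were 16b. The log2 difference from KSOM(aa) was -0.63 (SE 0.17, 1.54-fold lower, adjusted p = 0.018 by limma) in GM501 and -0.77 (SE 0.17, 1.70-fold lower, adjusted p = 0.00372) in SAGE 1-step. Taken over embryos 9 to 14, this value was -1.01 in GM501 and -1.02 in SAGE 1-step, while embryos 15 to 18 gave -0.05 (adjusted p = 0.863) and -0.40 (adjusted p = 0.223). The calls were lost with the KSOM(aa) sisters averaged (adjusted p = 0.13 and 0.0518) and, in GM501, without half-embryo 12a (adjusted p = 0.0518). They were also lost with each array scaled to the reference genes Actb, Gapdh and Hprt (-0.10 and -0.18), which raised the median of all transcript clusters from 0.09 and 0.10 to 0.61 and 0.69.

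Tead1 (chr7:112679318-112906807, plus strand), a related transcription factor, did not pass the test in either medium. It ranged from 10.22 to 12.24 (median 11.87) in KSOM(aa), from 10.34 to 12.18 (median 11.46) in GM501 and from 10.21 to 12.31 (median 11.54) in SAGE 1-step, with log2 differences of -0.24 (SE 0.25) and -0.19 (SE 0.25). The ranges overlapped nearly in full, and the 4 lowest KSOM(aa) values came from embryos 1, 2 and 4.

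The coactivators did not pass the test between media as deposited. Yap1 (chr9:7931999-8004596, minus strand) ranged from 5.88 to 6.99 (median 6.23) in KSOM(aa), from 5.86 to 7.60 (median 6.38) in GM501 and from 6.00 to 7.20 (median 6.26) in SAGE 1-step. Its log2 differences from KSOM(aa) were 0.17 (SE 0.15, adjusted p = 0.495) and 0.10 (SE 0.15, adjusted p = 0.677), with 8 and 9 of 10 half-embryos inside the KSOM(aa) range. With the arrays scaled to the 3 reference genes Yap1 was called higher in both media (0.69 and 0.70, adjusted p = 0.00191 and 9.6e-04). Wwtr1 (chr3:57455644-57575910, minus strand) was 8.41 (median, 7.70 to 8.71) in KSOM(aa), 8.12 (7.03 to 8.90) in GM501 and 8.11 (7.17 to 8.44) in SAGE 1-step. It was below the KSOM(aa) mean in 7 of 10 and 9 of 10 half-embryos, and its log2 differences of -0.25 (SE 0.17, adjusted p = 0.372) and -0.41 (SE 0.17, adjusted p = 0.116) did not pass, while after quantile normalization it was called lower in SAGE 1-step (-0.52, adjusted p = 0.0372). Vgll4 (chr6:114859996-114969994, minus strand), whose protein competes with YAP1 for TEAD, was 6.33 (5.81 to 7.17), 6.04 (5.67 to 7.10) and 6.03 (5.63 to 7.03) in the same order, with log2 differences of -0.28 (SE 0.18) and -0.27 (SE 0.18), neither past the test, though with robust array weights it was called lower in SAGE 1-step (-0.52, adjusted p = 0.0199). Half-embryo 16b held the lowest Wwtr1 value of SAGE 1-step, and without it the difference was -0.32.

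Of the kinases, Lats1 rose in GM501 and Lats2 did not pass the test. Lats1 (chr10:7681209-7716823, plus strand) ranged from 5.95 to 7.36 (median 6.55) in KSOM(aa), from 6.53 to 8.01 (median 6.93) in GM501 and from 6.39 to 7.64 (median 6.96) in SAGE 1-step. It was above the KSOM(aa) mean in 9 of 10 half-embryos of either medium, and 2 of 10 in each exceeded the KSOM(aa) maximum. The log2 difference was 0.55 (SE 0.16, 1.47-fold higher, adjusted p = 0.0329) in GM501 and 0.43 (SE 0.16, adjusted p = 0.092) in SAGE 1-step. The difference in GM501 was 0.40 in embryos 9 to 14 and 0.79 in embryos 15 to 18, neither past the test alone (adjusted p = 0.0739 and 0.0875), and the call was lost without any one of half-embryos 3b, 5b, 6a, 10a and 18a (0.51, 0.51, 0.52, 0.48 and 0.45, with adjusted p of up to 0.0865). It was also not called with the embryo as a random block (adjusted p = 0.0853), after quantile normalization (0.34) or after median centring (0.42), and scaled to the 3 reference genes it was 1.07. Lats2 (chr14:57689662-57758388, minus strand) had medians of 6.77, 6.74 and 6.87 and log2 differences of -0.07 (SE 0.15) and 0.19 (SE 0.15), with 10 and 9 of 10 half-embryos inside the KSOM(aa) range of 5.93 to 7.42.

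The upstream members did not pass the test in either medium. Nf2 (chr11:4765845-4849544, minus strand), which encodes the scaffold protein Merlin, had medians of 7.31, 7.31 and 7.07, and log2 differences of 0.02 (SE 0.18) in GM501 and -0.16 (SE 0.18) in SAGE 1-step. Amotl2 (chr9:102716672-102733418, plus strand) had medians of 6.18, 5.92 and 5.96, and differences of -0.09 (SE 0.16) and -0.04 (SE 0.16). Amot (chrX:145446424-145505181, minus strand) had medians of 7.53, 7.16 and 7.15, and differences of 0.05 (SE 0.26) and 0.04 (SE 0.26). In GM501 all 6 Amot values of embryos 9 to 14 (6.66 to 7.16) lay below the KSOM(aa) mean of 7.50 and all 4 of embryos 15 to 18 (7.93 to 8.83) above it.

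In all, 2 of 10 members were called in GM501 (1 higher, 1 lower) at an adjusted p under 0.05, beside 7.66% of all transcript clusters (4.06% higher, 3.60% lower). In SAGE 1-step 1 of 10 was called, lower, beside 9.55% (5.13% higher, 4.42% lower). Among transcript clusters above background, as all 10 members were, 12.5% were called in GM501 (6.41% higher, 6.13% lower). In SAGE 1-step these shares were 15.3% (7.78% higher, 7.51% lower). In embryos 9 to 14 alone the counts were 5 and 3 of 10, all lower, beside 52.0% and 46.5% of all called in either direction. Taken over both media, 10.9% of all were lower and 50.2% higher in embryos 9 to 14 than in KSOM(aa). In embryos 15 to 18 alone the counts were 0 and 0, beside 0.690% and 0.732% (limma, with 3 and 7 members at an unadjusted p under 0.05). The scaling decided the direction of the counts. With each array scaled to the 3 reference genes 6 and 6 members were higher and none lower, beside 79.1% and 84.3% of all. Quantile normalization gave 1 and 2 calls (11.0% and 12.1% of all), median centring 1 and 1 (9.18% and 11.4%), and the embryo as a random block 1 and 1 (5.21% and 6.80%), all lower. The trophectoderm markers moved in the same comparisons. Of 15, 7 fell in GM501 and 6 fell in SAGE 1-step, with Tead4 among them in each, while after the scaling to the reference genes 2 fell in each and 2 and 4 rose. In embryos 9 to 14 alone 9 and 10 of the 15 fell and 2 and 0 rose. In embryos 15 to 18 alone 2 and 0 fell and none rose. The mean log2 signal of these markers ranged from 11.27 to 11.76 in KSOM(aa), from 10.82 to 11.30 in GM501 and from 10.56 to 11.56 in SAGE 1-step. Hand1 was not above background. Of the epiblast markers Gdf3 rose in GM501 and Pou5f1 fell in SAGE 1-step, of the primitive endoderm markers Col4a1 rose in both, and of the cumulus and granulosa cell markers Star, which was not above background, was called higher in SAGE 1-step. With the embryo as a random block the calls of Gdf3 (adjusted p = 0.0811), of Col4a1 in GM501 (adjusted p = 0.0566) and of Star (adjusted p = 0.0949) were lost. The part of trophectoderm content in the Tead4 difference was not tested.

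**Figure D1:**
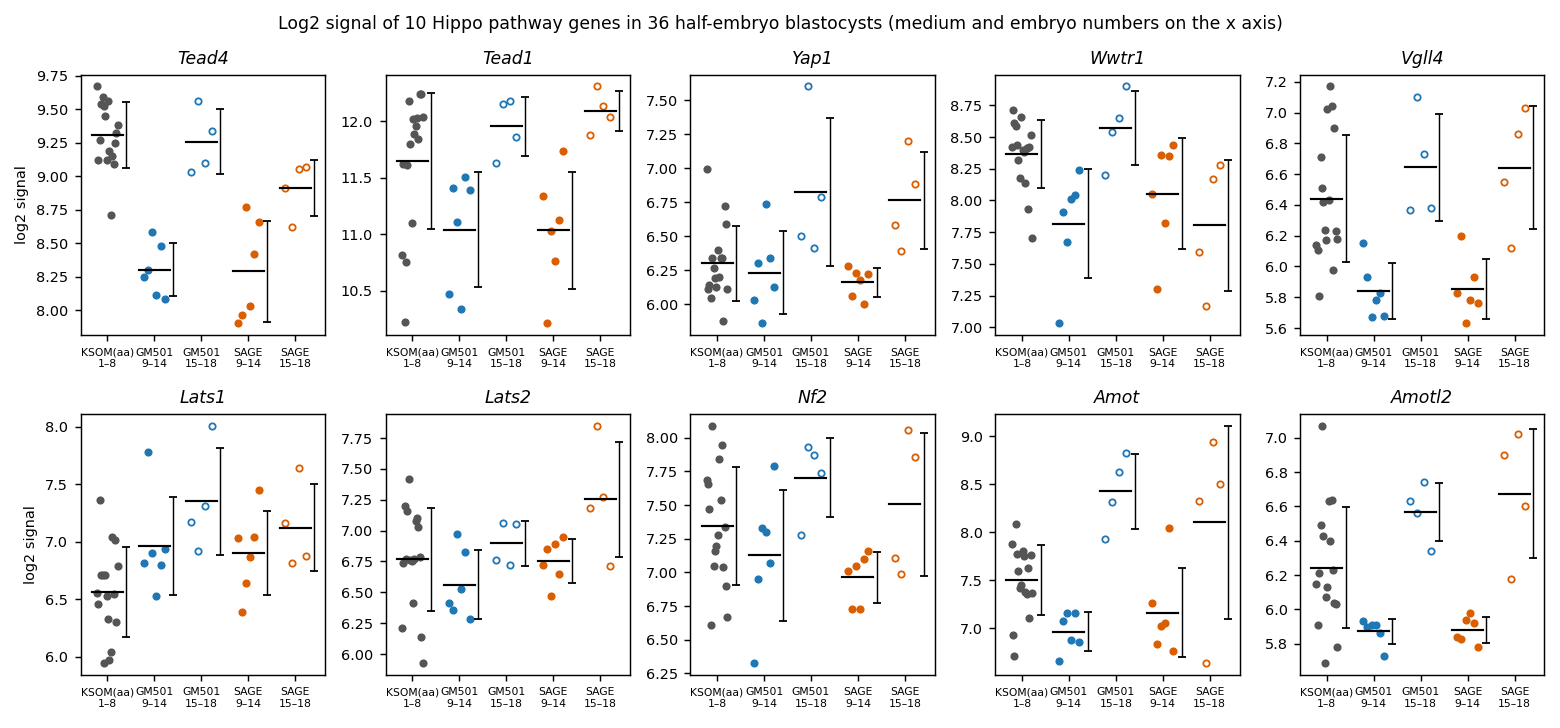
Log2 signal (y axis) of each of the 10 genes in every half-embryo, by medium and embryo numbers (x axis, filled points embryos 1 to 14, open points embryos 15 to 18, "SAGE" for SAGE 1-step). Horizontal lines are means and vertical bars SDs. Tead4 in embryos 9 to 14 (7.90 to 8.77) sits mostly below KSOM(aa) (8.71 to 9.67), and Amotl2 in embryos 9 to 14 lies in a narrow band from 5.73 to 5.98.

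**Figure D2:**
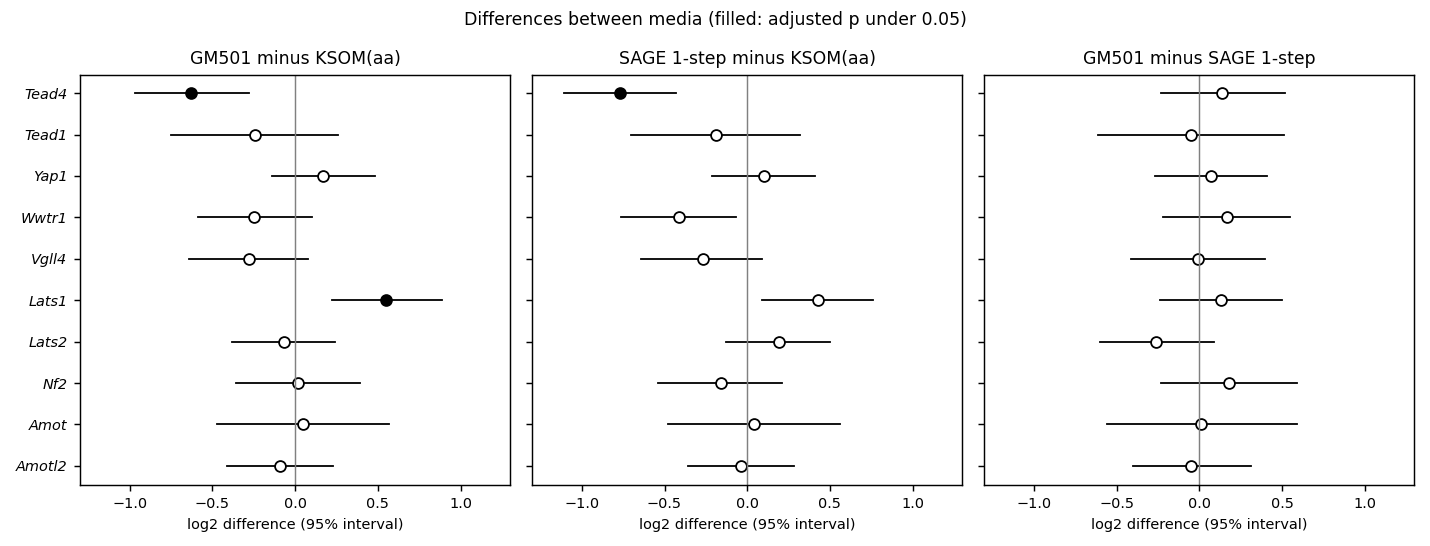
Log2 difference between media (x axis) of each gene (y axis) with its 95% interval, for the 3 pairs of media, from the fit that does not use the pairing of sisters. Filled points passed an adjusted p under 0.05: Tead4 in both comparisons with KSOM(aa) and Lats1 in GM501.

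GM501 and SAGE 1-step were compared on sisters of the same 10 embryos. No member was called, beside 0.00% of all transcript clusters, and no member reached an unadjusted p under 0.05 in limma, as 611 of 40160 transcript clusters did. The fit with the embryo as a replicate block called 0 too. The largest difference was that of Lats2, -0.26 (SE 0.17, 95% interval -0.60 to 0.09), GM501 minus SAGE 1-step, and SAGE 1-step was higher in 7 of 10 pairs. Nf2 (0.18, interval -0.23 to 0.59), Wwtr1 (0.17, -0.22 to 0.55) and Tead4 (0.14, -0.23 to 0.52) were next. In 8 of 10 pairs Tead4 was higher in the GM501 sister. The intervals of the 10 members lay between -0.61 and 0.59, which in this fit leaves room for differences of that size in either direction. These SEs and intervals do not use the pairing of sisters. Those of the fit with the embryo as a replicate block, which may have other widths, are not given here. Wwtr1 had a GM501 minus SAGE 1-step difference that was 1.01 (log2) lower in embryos 9 to 14 than in 15 to 18 (SE 0.39, p = 0.0184 before and 0.94 after adjustment in limma), and -0.80 without half-embryo 16b. No member passed that test, which 0.00% of all transcript clusters passed.

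The embryo sets were compared over both media, as a description, since the split was first seen in these signals. All 10 members had a lower mean in embryos 9 to 14 than in embryos 15 to 18, which held for 5 of 10 with the scaling to the reference genes. Amotl2 was separated completely. Its 12 values in embryos 9 to 14 ran from 5.73 to 5.98 (median 5.91) and its 8 values in embryos 15 to 18 from 6.18 to 7.02 (median 6.62), with a difference of -0.74 (SE 0.10). It was the only member without overlap, beside 1.58% of all transcript clusters that were lower without overlap. The SD was 0.07 in embryos 9 to 14, against 0.35 in KSOM(aa), and the background level of those arrays was 4.95 to 5.49.

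Amot differed most. It ranged from 6.66 to 8.04 (median 7.04) in embryos 9 to 14 and from 6.64 to 8.94 (median 8.41) in embryos 15 to 18, a difference of -1.20 (SE 0.24). The overlap was due to 13b (8.04) and 16b (6.64), and the other 7 half-embryos of embryos 15 to 18 lay between 7.93 and 8.94. The unmapped Amot transcript cluster ran the same way, from 5.83 to 6.92 in embryos 9 to 14 and from 7.96 to 9.42 in embryos 15 to 18 apart from 16b (5.29), with medians of 6.08 and 8.55. Without 16b the difference of Amot was -1.45.

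Tead1 ranged from 10.21 to 11.74 in embryos 9 to 14 and from 11.63 to 12.31 in embryos 15 to 18, with 11 of 12 below the lowest of the latter (difference -0.99, SE 0.19). Vgll4 (-0.80, SE 0.13) and Tead4 (-0.79, SE 0.15) had 10 of 12 values of embryos 9 to 14 below every value of embryos 15 to 18, and Yap1 (-0.60, SE 0.15) had 11 of 12. Lats2 (-0.42, SE 0.14) had 6 of 12 below, Nf2 (-0.56, SE 0.18) and Lats1 (-0.31, SE 0.18) had 4 of 12 each, and Wwtr1 (-0.25, SE 0.22) had 1 of 12. At an adjusted p under 0.05, 8 of 10 members were lower in embryos 9 to 14 (all but Lats1 and Wwtr1), beside 63.6% of all transcript clusters called (10.4% lower, 53.2% higher). Among those above background 58.1% were called (18% lower, 40.1% higher). The median difference was -0.67 over the members and 0.30 over all transcript clusters. Scaled to the reference genes the medians were -0.07 and 0.91, and only Amot (-0.60) was still called, beside 86.2% of all called in either direction. With this scaling Yap1 (0.01), Wwtr1, Lats1, Lats2 (0.19) and Nf2 (0.04) were higher in embryos 9 to 14. The mean log2 signal of the trophectoderm markers was 10.56 to 11.08 in embryos 9 to 14 and 11.07 to 11.56 in embryos 15 to 18 (medians 10.94 and 11.18). The primitive endoderm markers had medians of 7.70 and 8.57 (7.43 to 8.24 and 7.50 to 8.78), the epiblast markers 7.15 and 7.34, the cumulus and granulosa cell markers 4.59 and 4.31, and the ribosomal RNA Rn18s was 17.09 ± 0.42 (SD, n = 12) and 18.57 ± 0.08 (n = 8). The part of these shifts in the members' differences was not tested. Each member lay below the median of all transcript clusters as deposited and after quantile normalization. Median centring and the scaling to the reference genes move all transcript clusters of an array alike, so they could not change this.

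**Figure D3:**
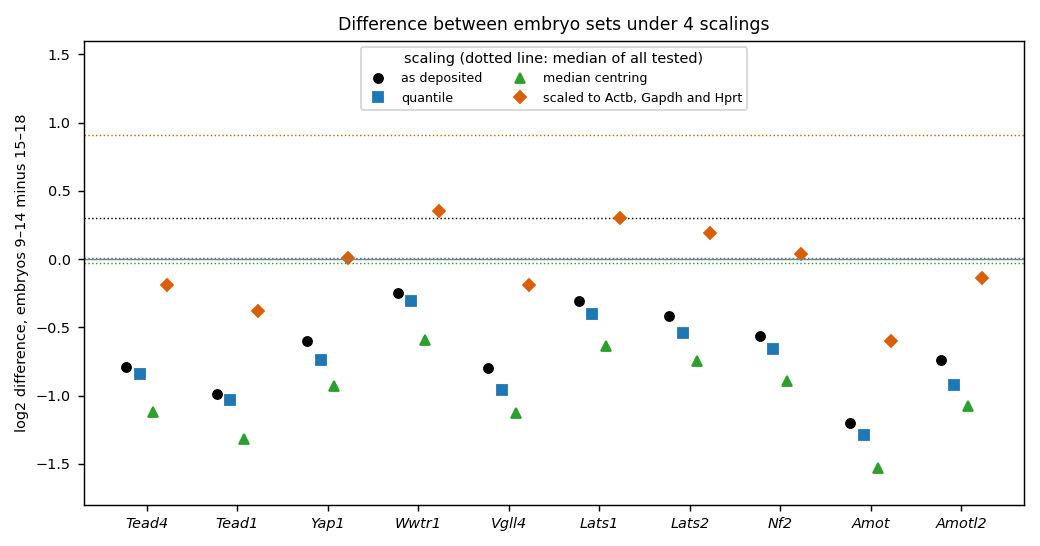
Log2 difference between embryos 9 to 14 and 15 to 18 (y axis) of each gene (x axis) under 4 scalings of the arrays, with the median of all tested transcript clusters as a dotted line per scaling. Every member lies below the line of its own scaling. Median centring and the scaling to the reference genes Actb, Gapdh and Hprt move members and line alike, so they could not change this. The sign against 0 turns for 5 members under the scaling to the reference genes.

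The embryo sets were also set against KSOM(aa), again as a description. In embryos 15 to 18, whose Gapdh was close to that of KSOM(aa), 3 of 10 members were called higher and none lower, beside 5.06% of all transcript clusters called (1.71% higher, 3.35% lower). They were Amot (0.76, SE 0.20), Lats1 (0.67, SE 0.17) and Yap1 (0.49, SE 0.13), and 6 of 8, 2 of 8 and 2 of 8 half-embryos exceeded the KSOM(aa) maximum. These half-embryos are 4 sister pairs, and with the embryo as a random block only Lats1 was called (adjusted p = 0.0495, against 0.0558 for Amot and 0.0687 for Yap1), beside 2.15% of all. Under quantile normalization these were 0.66, 0.52 and 0.35 and none was called (limma, with 4 members at an unadjusted p under 0.05), whereas without half-embryo 16b Amotl2 (0.44) was called as well. In embryos 9 to 14, 6 of 10 were called lower and 1 higher (Lats1, 0.37), beside 61.0% of all transcript clusters called (10.9% lower, 50.2% higher). Among those above background 62.1% were called in embryos 9 to 14 (18.6% lower, 43.5% higher) and 6.49% in embryos 15 to 18 (3.59% lower, 2.91% higher). With the scaling to the reference genes 7 members were higher and none lower in embryos 9 to 14, beside 91.9% of all called in either direction and a median of 1.01 over all. The members called lower as deposited were Tead4 (-1.01, SE 0.11), Tead1 (-0.61), Vgll4 (-0.59), Amot (-0.44), Wwtr1 (-0.43) and Amotl2 (-0.37). Of these, Tead4 stood apart most clearly, with 11 of 12 values below every KSOM(aa) value. With the embryo as a random block Lats1 (adjusted p = 0.0584) and Amot (adjusted p = 0.0523) were not called, and 5 of 10 were lower, beside 56.5% of all.

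Sisters in the same medium were compared within the 8 embryos in KSOM(aa). The median absolute log2 difference between sisters ran from 0.11 (Vgll4) and 0.15 (Yap1) to 0.46 (Tead1) and 0.48 (Lats1), beside a median of 0.29 over the 22746 transcript clusters above background. The largest single gaps were those of Amot in embryo 2 (6.71 and 8.09, a difference of 1.38), Nf2 in embryo 3 (1.04) and Lats1 in embryo 6 (1.00). Amot then differed by 0.95 in embryo 1 and by 0.02 to 0.52 in the other 6 embryos. Its unmapped transcript cluster also had its widest gaps in embryos 2 (1.96) and 1 (1.68), in the same direction. Over the 10 members, the median gap was smallest in embryo 4 (0.12) and largest in embryo 2 (0.48).

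Tead1 and Lats2 had the highest F for embryo among the members. Amotl2 came next (SD of embryo means 0.31, within pairs 0.26, F = 2.76). The SD of the embryo means was 0.57 for Tead1 and 0.40 for Lats2, and the SD within pairs 0.35 and 0.22 (F = 5.35 and 5.37, limma adjusted p = 0.242 and 0.241), so neither of these passed the test over all transcript clusters, of which 0.187% did. Tead1 was lowest in both sisters of embryo 2 (10.22 and 10.75), while 8 half-embryos of embryos 5 to 8 all lay between 11.84 and 12.24. Lats2 was lowest in both sisters of embryo 8 (6.14 and 5.93) and highest in one sister of embryo 3 (7.42). Amot lay at the other end, with an SD of 0.16 between embryo means and 0.45 within pairs (F = 0.27). No member was called, and Tead1 and Lats2 were the ones with an unadjusted p under 0.05 in the F test, beside 13% of all transcript clusters.

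In embryos 9 to 18, where sisters also differed in medium, the median absolute gap ran from 0.08 (Amotl2) to 0.61 (Wwtr1), beside 0.31 over all transcript clusters above background. Embryo 16 held the widest gap of 8 of the 10 members (all but Tead1 and Lats1), and its SAGE 1-step sister was 16b. There Amot was 8.31 in GM501 and 6.64 in SAGE 1-step, Wwtr1 8.54 and 7.17, and Yap1 7.60 and 6.39, whereas Lats2 was 7.06 and 7.85.

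**Figure D4:**
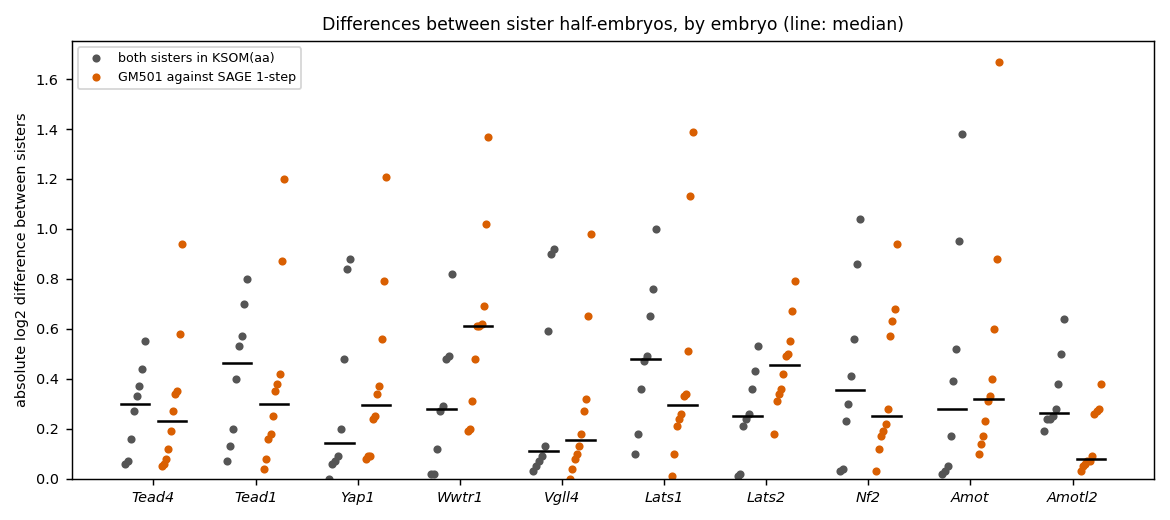
Absolute log2 difference between sister half-embryos (y axis) of each gene (x axis), 1 point per embryo, for 8 embryos with both sisters in KSOM(aa) and 10 embryos divided between GM501 and SAGE 1-step. Lines are medians, from 0.11 for Vgll4 to 0.48 for Lats1 in KSOM(aa).

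The rest of the pathway was described from 8 lists, in all 93 transcript clusters of genes other than the members, of which 83 were above background. In GM501, 1 rose and 14 fell relative to KSOM(aa), beside 7.66% of all called (4.06% higher, 3.60% lower). In SAGE 1-step 3 rose and 15 fell, beside 9.55% (5.13% higher, 4.42% lower). Among transcript clusters above background, 12.5% were called in GM501 (6.41% higher, 6.13% lower) and 15.3% in SAGE 1-step (7.78% higher, 7.51% lower). With the scaling to the reference genes 42 and 43 rose and 5 and 6 fell, beside 79.1% and 84.3% of all called in either direction. These shares also stand beside the counts of each list below. As deposited, the medians were -0.19 and -0.18, beside 0.09 and 0.10 over all transcript clusters. In embryos 9 to 14 alone 10 rose and 41 fell in GM501, and 10 rose and 42 fell in SAGE 1-step, beside 52.0% and 46.5% of all transcript clusters called in either direction. In embryos 15 to 18 alone none fell and 1 and 0 rose (0.690% and 0.732% of all), and with the embryo as a random block 9 and 13 fell and none rose (5.21% and 6.80% of all).

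Genes that depend on TEAD4 and YAP in the mouse embryo made up 1 list of 9. It holds the epiblast marker Sox2 beside trophectoderm genes, so its counts and medians do not measure 1 direction of TEAD4 and YAP output. In either medium 4 fell, beside 3.60% and 4.42% of all, and none rose. The medians were -0.54 and -0.38, and -0.02 and 0.21 with the scaling to the reference genes. Eomes, a trophectoderm transcription factor, was -1.22 (SE 0.20, adjusted p = 5.3e-04) in GM501 and -1.23 (SE 0.20, adjusted p = 3.4e-04) in SAGE 1-step, and also lower with that scaling (-0.70 and -0.63). The keratins of the outer epithelium, Krt8 (-1.16 and -1.38) and Krt18 (-0.54 and -0.65), and the transcription factor Tfap2c (-0.59 and -0.65) were the others, and with that scaling Krt18 (-0.02 and -0.05) and Tfap2c (-0.07 and -0.06) were not called. Cdx2 (-0.17 and -0.29) and Gata3 (-0.38 and -0.35), the best known TEAD4 targets, did not pass. With the embryo as a random block Tfap2c was not called (adjusted p = 0.0907 and 0.05). In embryos 15 to 18 alone none of the 9 was called, and Eomes was -0.84 (adjusted p = 0.0729) and -0.80 (adjusted p = 0.0835).

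Of 20 genes known as YAP and TEAD targets in cultured cells, Amotl2 and Lats2 among them, limma called none in either medium. In limma 1 and 2 had an unadjusted p under 0.05, beside 24.1% and 26.4% of all. With the scaling to the reference genes 14 and 15 rose, beside 79.1% and 84.3% of all called in either direction. Of the 20, 6 (Ctgf, Ankrd1, Axl, Tgfb2, Fjx1 and Igfbp3) were not above background. Dock5 (-0.50 and -0.74) and F3 (0.42 and 0.69) were among those with the smallest p in SAGE 1-step, with adjusted p = 0.0733 and 0.197 there. The difference between the 2 lists was not tested.

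Of 17 genes of apical polarity and adherens junctions, 5 fell in each medium and none rose, while with the scaling to the reference genes 1 fell and 4 and 5 rose. Cdh1, the main cadherin of the early embryo, was -1.36 (SE 0.28, adjusted p = 0.00294) and -1.59 (SE 0.28, adjusted p = 5.5e-04), and was still called lower with that scaling (adjusted p = 0.00184 and 3.0e-04). The atypical protein kinase C gene Prkcz (-0.62 and -0.47), and the polarity genes Crb3 (-0.67 and -0.75), Scrib (-0.43 and -0.40) and Llgl1 (-0.79 and -0.88) were the others. With that scaling none of those 4 was called, and Scrib (0.09 and 0.19) and, in SAGE 1-step, Prkcz (0.12) had the opposite sign. With the embryo as a random block, 2 of the 17 fell in GM501 and 4 in SAGE 1-step.

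Of 11 genes of turnover and retention, which hold YAP1 in the cytoplasm or mark it for degradation, 3 fell in GM501 and 4 in SAGE 1-step, while with the scaling 1 fell and 5 and 4 rose. Csnk1e, a casein kinase gene, was -1.01 (SE 0.20) and -1.05 (SE 0.20), with adjusted p = 0.00245 and 0.00139 (-0.49 and -0.45 with the scaling). Sfn, the 14-3-3 sigma protein gene, fell as well (-0.67 and -0.73), as did Csnk1d in SAGE 1-step (-0.93) and the 14-3-3 genes Ywhag in GM501 (-0.54) and Ywhaz in SAGE 1-step (-0.44). With the scaling none of Sfn, Ywhag and Ywhaz was called. In embryos 9 to 14 alone 8 and 7 of the 11 fell, beside 52.0% and 46.5% of all called in either direction. In embryos 15 to 18 alone none was called, beside 0.690% and 0.732% of all.

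Among 9 core kinases and scaffolds, Mob1b, which encodes a LATS activator, rose in both media (0.49 and 0.49, adjusted p = 0.0236 and 0.0195), Lats1 in GM501 and the scaffold gene Sav1 in SAGE 1-step (0.62, adjusted p = 0.0298), whereas Mob1a, the close relative of Mob1b, fell in GM501 (-0.86, adjusted p = 0.048). With the scaling 6 of the 9 rose in each medium, beside 79.1% and 84.3% of all called in either direction. With the embryo as a random block Mob1b was not called (adjusted p = 0.069 and 0.0587), nor was Mob1a (0.064) or Sav1 (0.083). Among 20 upstream regulators only the atypical cadherin gene Fat1 was called, at -1.40 and -1.35 (adjusted p = 0.023 and 0.0238), while with the scaling 11 and 13 of the 20 rose, beside the same 79.1% and 84.3%. In embryos 15 to 18 alone Fat1 was -0.02 and 0.04. Among 11 inhibitors of the kinases limma called none in GM501 (2 had an unadjusted p under 0.05, beside 24.1% of all), and in SAGE 1-step the phosphatase subunit gene Ppp2r1a (-1.42, adjusted p = 0.0332) fell and the ubiquitin ligase gene Wwp1 (0.44, adjusted p = 0.0485) rose. With the embryo as a random block Wwp1 was not called (adjusted p = 0.0944). In embryos 15 to 18 alone Ppp2r1a was 0.23 and not called. Among the 10 coactivators and transcription factors only Tead4 was called, in each medium.

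**Figure D5:**
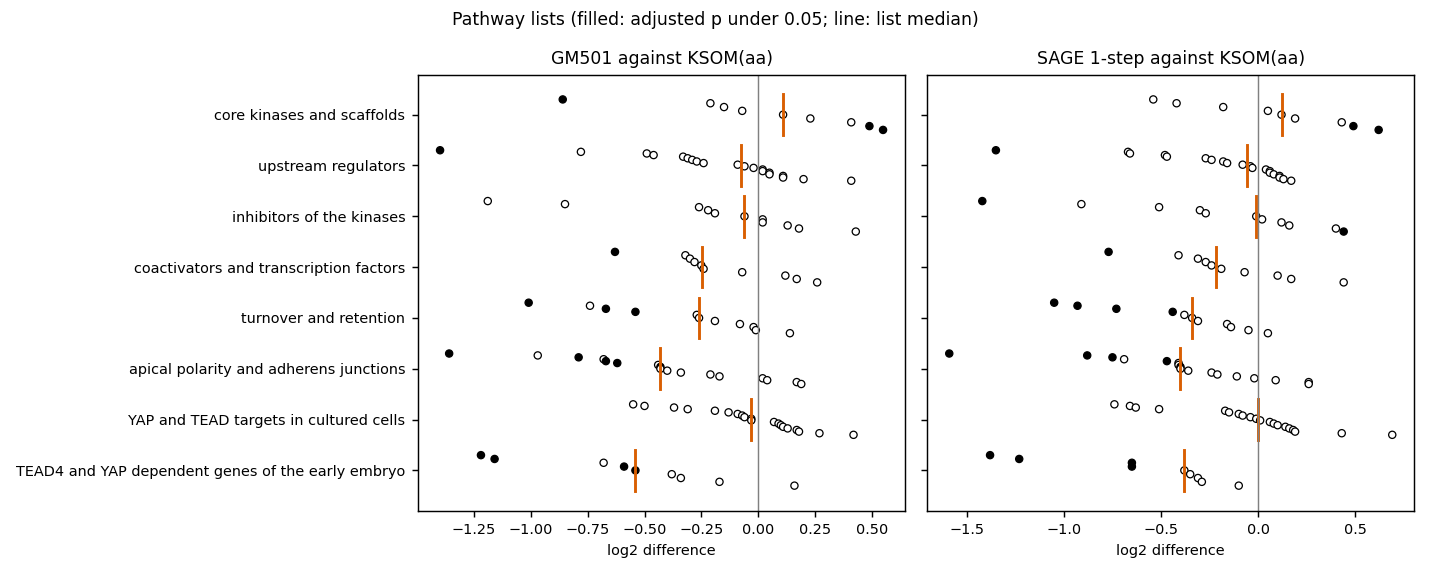
Log2 difference from KSOM(aa) (x axis) of each gene of the 8 lists (y axis), in GM501 and SAGE 1-step. Filled points passed an adjusted p under 0.05, and vertical lines are list medians. The TEAD4 and YAP dependent genes of the early embryo have medians of -0.54 and -0.38 (-0.02 and 0.21 with the scaling to the reference genes), and the core kinases and scaffolds 0.11 and 0.12.

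Over the 36 half-embryos, with each gene centred on its mean per medium and embryo set, the genes most like each member among 12338 named genes above background were read by Pearson's r, as a description. Nf2 had the closest match, Gab2 (r = 0.82). Wwtr1 went with Gtf2f1 (0.79), Amot with Rpl4 (0.79), Amotl2 with Rnf123 (0.77), Tead1 with Adam10 (0.76) and Tead4 with Pigq (0.68). For Lats1 (Pdk3, 0.63), Lats2 (Rfx4, 0.63), Vgll4 (Got2-ps1, 0.63) and Yap1 (Nadk, 0.62) the highest r was lower. Among the members themselves the highest r was that of Nf2 and Wwtr1 (0.60), followed by Amot and Amotl2 (0.42), and the lowest that of Amot and Lats2 (-0.31). The points share arrays, and sisters share an embryo. They include half-embryo 16b, which had the lowest Amot (6.64) and the highest Lats2 (7.85) of SAGE 1-step. The r values without 16b were not computed.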

How the data were processed

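The authors amplified the RNA of single half-embryos, hybridized it to the array and made normalized values by SST-RMA in the Affymetrix software, annotated on mm10. The deposited table holds log2 signals, 1 per transcript cluster and array. The sources used here do not say which arrays were normalized together, so a difference from KSOM(aa) may hold a difference in normalization. Half-embryo 1a was used as log2 signal too, but 1 deposited value of it, here called a score, cannot be a log2 signal, and that 1 of 65956 transcript clusters was left out. Media were compared with limma 3.58.1 (R 4.3.3), 2-sided, with 1 mean per medium over 36 arrays and a trended prior variance. P-values were adjusted by Benjamini-Hochberg over the 40160 transcript clusters with a symbol, at a threshold of 0.05. A transcript cluster counted as above background where it exceeded the 90th percentile of the 1794 transcript clusters of olfactory or vomeronasal receptors in 50% or more of a medium's half-embryos. Embryos in KSOM(aa) were compared by a moderated F test against the spread within pairs. Per the labels, half-embryos of the same number are sisters, so they are paired, and the consensus correlation was 0.374 in the comparisons of media with KSOM(aa), 0.169 between embryo sets and 0.173 for embryo sets against KSOM(aa). The number of arrays limits the precision.

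The members, lists and embryo sets were chosen with earlier results of these data known. All 10 members are named in every comparison, and from each list genes among the 4 with the smallest adjusted p in a comparison with KSOM(aa). Cdx2, Gata3 and the genes not above background were named after their values were seen. For each member the 3 genes most like it were computed, and the first is given. Alternatives were other scalings, other sets of half-embryos and of transcript clusters, replicate blocks, array weights, Xist class and the t-test of the methods, and alternatives added after seeing the data were embryo set as a term, each half-embryo left out and each embryo set against KSOM(aa), also with the embryo as a random block.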

Additional observations from a re-analysis of the deposited data

Results flagged for a closer look

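For 3 genes, within 1 medium, every half-embryo of embryos 9 to 14 lay below the KSOM(aa) mean and every half-embryo of embryos 15 to 18 above it. The share of all transcript clusters with this pattern is not given here, so it is not shown to be particular to these genes. Over both media 6.00% of all transcript clusters had no overlap between the embryo sets. The difference between these effects was not tested within 1 medium. Over both media the log2 difference between the embryo sets was -0.60 for Yap1, -1.20 for Amot and -0.74 for Amotl2. Each was called by limma, beside 63.6% of all transcript clusters (10.4% lower, 53.2% higher). These calls rest on the half-embryos and the split that the flag was read from, so they are no separate support. With the scaling to the reference genes only that of Amot was called, beside 86.2% of all. In SAGE 1-step, Yap1 had a mean difference from KSOM(aa) of -0.14 in embryos 9 to 14 and 0.46 in embryos 15 to 18. In GM501, Amot had -0.54 and 0.92, and Amotl2 had -0.37 and 0.32.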

How the results depend on the processing

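Of 10 members, 2 were called in GM501 against KSOM(aa) as deposited, beside 7.66% of all transcript clusters. The count was 1 after quantile normalization (11.0% of all), after median centring (9.18%) and with a random replicate block for the embryo (5.21%). It was also 1 with embryos 1 to 5 in KSOM(aa) only (2.08%). It was 0 with sisters in KSOM(aa) averaged (1.47%) or embryos 15 to 18 only (0.690%). It was 5 with embryos 9 to 14 only (52.0%) and 6 when scaled to Actb, Gapdh and Hprt (79.1%). Leaving out each of 26 half-embryos gave 1 to 2 (4.22% to 10.8% of all). In SAGE 1-step 1 was called (9.55% of all), against 2 after quantile normalization (12.1%) and 6 when scaled to the 3 genes (84.3%). It was 3 with robust array weights (32.5%) or embryos 9 to 14 only (46.5%). It was 0 with sisters averaged (1.85%) or embryos 15 to 18 only (0.732%), and 1 to 1 when each half-embryo was left out (5.73% to 16.4%). Between embryo sets the count went from 8 to 1 with that scaling, beside 63.6% and 86.2% of all. For embryos 15 to 18 against KSOM(aa) it went from 3 (5.06% of all) to 0 with quantile normalization (5.46%). It went to 1 once each embryo was a random replicate block (2.15%). Counts between GM501 and SAGE 1-step, with the embryo as a fixed replicate block too, stayed at 0, as did those between embryos.

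Among differences that were called as deposited or under the alternative, signs turned with the scaling to Actb, Gapdh and Hprt, and once with embryos 9 to 14 only (Amot in GM501, to -0.54). With that scaling, Lats2 became 0.45 and Amotl2 0.43 in GM501. In SAGE 1-step, Amotl2 became 0.55 and Nf2 0.43. Between embryo sets, Yap1 became 0.01, Lats2 0.19 and Nf2 0.04. For embryos 9 to 14 against KSOM(aa), Tead1 became 0.19, Yap1 0.70, Wwtr1 0.37, Lats2 0.69, Amot 0.36, Amotl2 0.43, Nf2 0.50 and Vgll4 0.20. This scaling raised the median of all transcript clusters to between 0.11 and 1.01 in the comparisons with KSOM(aa). The t-test of the methods, at an unadjusted p under 0.01, called Tead4 and Lats1 in GM501 and Tead4 and Wwtr1 in SAGE 1-step, beside 13.6% and 14.5% of all, and after adjustment 2 and 1 members.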
